A study of Mus musculus with 12 samples.

Results

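Stroma grown in culture and transduced with a control vector was compared with freshly sorted stromal cells of bone marrow, to see how such cells differ after culture with serum and basic FGF. The 6 libraries compared were chosen by their sample titles out of 12 libraries in the series, and they were analysed on their own. Control stroma (3 libraries) had been grown from cells of digested bone marrow of C57BL/6J mice that carried a green fluorescent reporter of Scf, the stem cell factor gene that the files list as Kitl, and that lacked CD45, Ter119 and CD31. The medium was alpha-MEM with 20% fetal bovine serum, 10 ng/ml basic FGF, L-glutamine, penicillin and streptomycin, and the cells then received a vector without any of the 5 genes that the study transduced elsewhere. GFPpos cells (3 libraries) were cells of the same strain labelled as freshly sorted by the same markers and as carrying no transduced gene. They were taken as uncultured on that label, although the labels repeat the culture protocol for every library. CD45 marks blood cells, Ter119 red cell precursors and CD31 endothelium, so the sort was meant to leave stroma of both groups free of them. Each library came from 1000 to 5000 sorted cells, which were amplified with SMART-Seq v4, a method for small amounts of RNA that copies full-length transcripts, before sequencing. The labels give no passage, no time in culture, no animal age or number and do not state if replicates were separate mice or cultures, so p-values reflect no more than the spread among the libraries at hand. Culture, serum, basic FGF and the vector always came together, and their parts cannot be told apart.

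Scf-expressing stroma lies along marrow sinusoids and holds haematopoietic stem cells in place through Kitl and Cxcl12. These cells overlap with the reticular cells that express the leptin receptor and adiponectin and that give rise to bone and fat in adult marrow. When such cells are plated on plastic with serum, they spread, divide and are known to lose niche factor expression, while basic FGF acts through receptor tyrosine kinases and ERK and induces its own feedback inhibitors.

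Libraries held 66759412 to 74265031 counts in control stroma and 60507051 to 85353566 in GFPpos cells. Levels are given per library as CPM, counts scaled to a common library size with TMM factors, and can be compared between groups for a gene but not between genes, since longer transcripts collect more reads. A gene was called higher or lower in control stroma when its adjusted p in the quasi-likelihood test of edgeR was under 0.05 over the 14305 genes tested. Log2 fold changes are of control stroma over GFPpos cells, with the standard error of the fit after ± (n = 3 each), also where they stand alone in parentheses, and a list's median is that of its log2 fold changes. A gene with no counts in a group is given the least fold that 3 counts in each of that group's libraries would allow, and one with 1 to 3 counts in a group the ratio of summed counts with its exact interval, and both cover counting error only. By this rule 9312 genes (65.1%) were called, 4347 of them (30.4%) higher and 4965 (34.7%) lower in control stroma, and the groups of 3 libraries did not overlap in 10612 genes (74.2%). Groups that did not overlap were thus the common case, and set no named gene apart from most others. Among genes over 2-fold apart, 2389 (16.7%) were called higher and 3204 (22.4%) lower. The median log2 fold change over all genes tested was -0.05. Control libraries varied far less among themselves, with a biological coefficient of variation of 6.96% against 41.9% in GFPpos cells, and the fit shares a spread between them. Same-numbered libraries of the groups did not deviate together.

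Transcripts of the sort antigens CD45 and CD31 were at or near 0 in control stroma but present in fresh cells. Ptprc, which encodes CD45, had no counts in control stroma, against 25.4, 11.4 and 2.87 CPM in GFPpos cells. Pecam1, which encodes CD31, measured 0, 0.164 and 0.0423 CPM in control stroma, against 12.4, 9.86 and 8.48 CPM in GFPpos cells. Fresh cells that had been sorted as negative for these antigens thus still held transcripts of both, and replicate 1 held most of Ptprc. Summed over 17 erythroid markers, plain CPM were 37.7 to 41.9 in control stroma and 6377, 4571 and 3081 in GFPpos replicates 1, 2 and 3, beside 22768 to 23967 in fresh cells negative for the reporter (GFPneg). Neutrophil markers summed to 9.71 to 11.6 CPM in control stroma and to 4426, 1559 and 813 CPM in the GFPpos replicates, while megakaryocyte markers summed to 71.6 to 76.6 CPM in control stroma and to 365, 3940 and 3193 CPM in GFPpos cells. These blood marker sums were therefore above those of control stroma in all 3 fresh libraries. The erythroid and neutrophil sums were highest in GFPpos replicate 1, and the megakaryocyte sum was highest in replicate 2. Of these lists, 17 of 17 tested erythroid, 17 of 17 neutrophil, 13 of 15 macrophage, 15 of 16 megakaryocyte, 2 of 4 lymphoid, 17 of 18 pan-haematopoietic, 14 of 16 endothelial and 5 of 9 Schwann cell markers were lower in control stroma, against 34.7% of all genes. Eng, an endothelial marker that stroma also expresses, and Pmp22, the peripheral myelin protein on the Schwann cell list, were the members called higher. In bulk libraries, fewer cells of a type and less RNA per cell cannot be told apart.

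**Figure D1:**
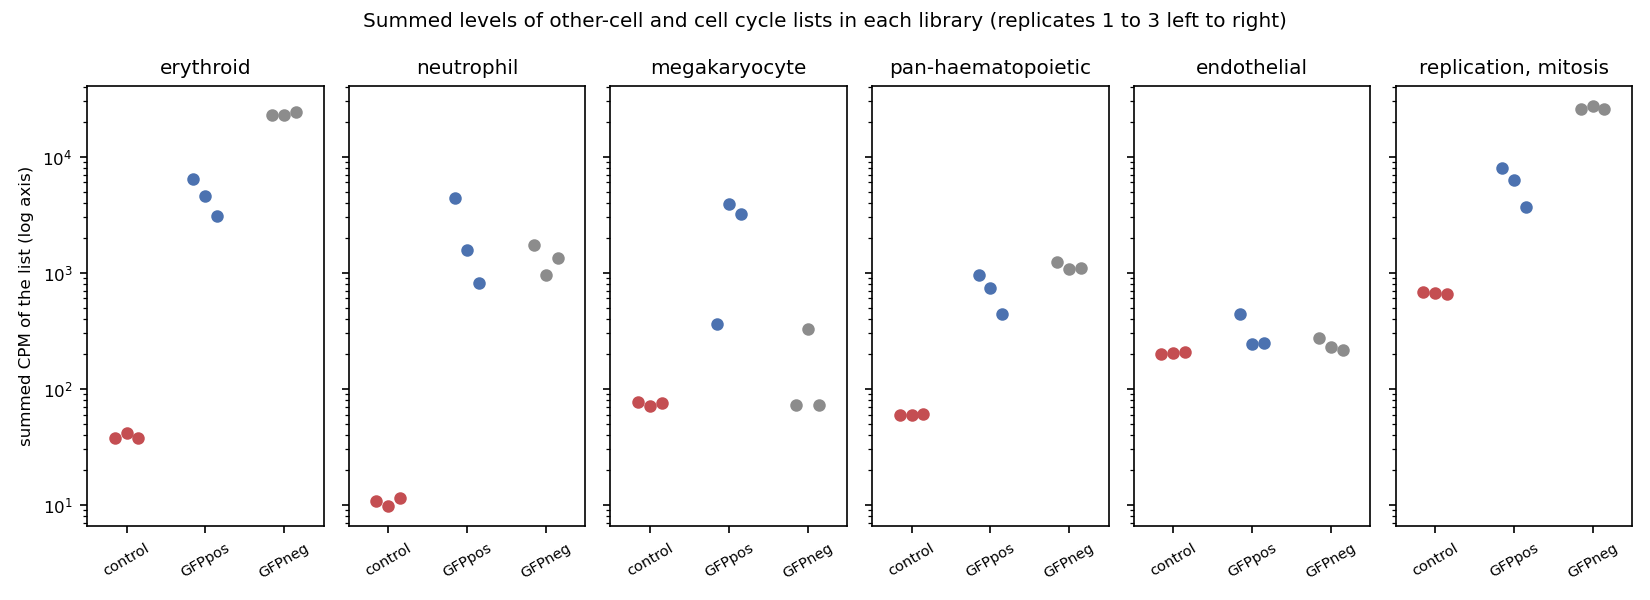
Summed CPM (log axis, scaled to library totals) of the erythroid, neutrophil, megakaryocyte, pan-haematopoietic, endothelial and cell cycle lists in each of the 3 libraries of control stroma, GFPpos and GFPneg cells, with 1 point per library. Control libraries lie close together in every panel, below all GFPpos libraries, and GFPpos libraries spread most in the megakaryocyte panel, where they reach 365, 3940 and 3193 CPM.

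Genes that define the reporter-positive reticular cell fell in culture, some of them to traces. Kitl, the gene behind the reporter, stood at 35.4, 33.7 and 27.2 CPM in control stroma, against 318, 285 and 462 CPM in GFPpos cells (log2 fold change -3.47 ± 0.22, adjusted p = 3.45e-05). The chemokine gene Cxcl12, whose product keeps stem cells in the marrow, was at 5297, 5495 and 5266 CPM in control stroma, against 33752, 24458 and 36647 CPM in GFPpos cells (log2 fold change -2.56 ± 0.19, adjusted p = 6.14e-05). Both were lower in each control library than in any fresh library, yet neither was lost. With all 12 libraries in the fit, the adjusted p of Cxcl12 was 0.136 at a log2 fold change of -2.54. The leptin receptor gene Lepr, in contrast, measured 0.368, 0.2601 and 0.169 CPM in control stroma, against 2315, 2305 and 3046 CPM in GFPpos cells (log2 fold change -13.21 ± 0.33, adjusted p = 3.97e-06). Adipoq, which encodes the hormone adiponectin, stood at 0.482, 0.657 and 0.367 CPM in control stroma, against 1464, 1402 and 2367 CPM in GFPpos cells (log2 fold change -11.76 ± 0.39, adjusted p = 6.17e-06). The control libraries thus held Lepr and Adipoq at less than 1 CPM. Esm1, which encodes the secreted proteoglycan endocan, was at 3.09, 2.11 and 2.71 CPM in control stroma, against 725, 727 and 1064 CPM in GFPpos cells (log2 fold change -8.31 ± 0.27, adjusted p = 6.00e-06). Agt, which encodes angiotensinogen, measured 11.7, 10.6 and 7.97 CPM in control stroma, against 1288, 874 and 1282 CPM in GFPpos cells (log2 fold change -6.83 ± 0.26, adjusted p = 8.33e-06). Again the groups did not overlap for either gene.

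Of 33 tested niche and reticular cell genes, 22 fell, 4 rose and 7 did not pass, with a median log2 fold change of -2.51 beside -0.05 over all genes. Foxc1 and Ebf3, transcription factors that maintain the reticular cell, had log2 fold changes of -1.25 ± 0.18 (adjusted p = 0.000991) and -1.65 ± 0.24 (adjusted p = 0.00109). Vcam1, an adhesion molecule for blood cells, fell as well (log2 fold change -2.55 ± 0.17, adjusted p = 4.56e-05). Pdgfra, a platelet-derived growth factor receptor used to sort stroma, stood at 1034, 1009.6 and 1039 CPM in control stroma, against 303, 286 and 379 CPM in GFPpos cells (log2 fold change 1.67 ± 0.13, adjusted p = 6.55e-05), and so was higher in culture. Its partner Pdgfrb did not pass, at 1061, 1017 and 1043 CPM in control stroma, against 886, 648 and 889.8 CPM in GFPpos cells (log2 fold change 0.36 ± 0.14, adjusted p = 0.0561). The members that rose were Dlk1, Ncam1, Nes and Csf1. Dlk1, a membrane protein of the Notch ligand family that holds back fat cell formation, was at 87.9, 96.6 and 92.5 CPM in control stroma, against 0, 0.427 and 0 CPM in GFPpos cells (log2 fold change 9.51 ± 0.87, adjusted p = 0.000133). Ncam1, the neural cell adhesion molecule, measured 253, 270.0 and 259 CPM in control stroma, against 79.6, 68.8 and 82.4 CPM in GFPpos cells (log2 fold change 1.76 ± 0.10, adjusted p = 2.07e-05). Csf1, the growth factor of macrophages, stood at 1193, 1226 and 1212 CPM in control stroma, against 731, 456 and 680.3 CPM in GFPpos cells (log2 fold change 0.96 ± 0.18, adjusted p = 0.00315). No control library overlapped a fresh one for these genes. Nes, the intermediate filament nestin, had a smaller difference (log2 fold change 1.08 ± 0.35, adjusted p = 0.0304), whose adjusted p was 0.0747, 0.0597 and 0.0961 without control replicate 1, 2 or 3 and 0.178 with all 12 libraries. The adjusted p of Csf1 with all 12 libraries was 0.115. Among the 5 genes that the study transduced into other cultures, Klf7 (0.36 ± 0.16), Ostf1 (-0.09 ± 0.07) and Xbp1 (-0.03 ± 0.12) did not pass, whereas Irf3 was lower (log2 fold change -1.12 ± 0.11, adjusted p = 0.000189) and Irf7 higher (log2 fold change 0.8 ± 0.09, adjusted p = 0.000359) in control stroma. The groups did not overlap for Klf7 and Ostf1, and Klf7 passed without GFPpos replicate 3 (adjusted p = 0.00917) and with all 12 libraries (0.0153), and Ostf1 with genes over 2 times higher in GFPneg than in GFPpos cells left out (0.008).

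**Figure D2:**
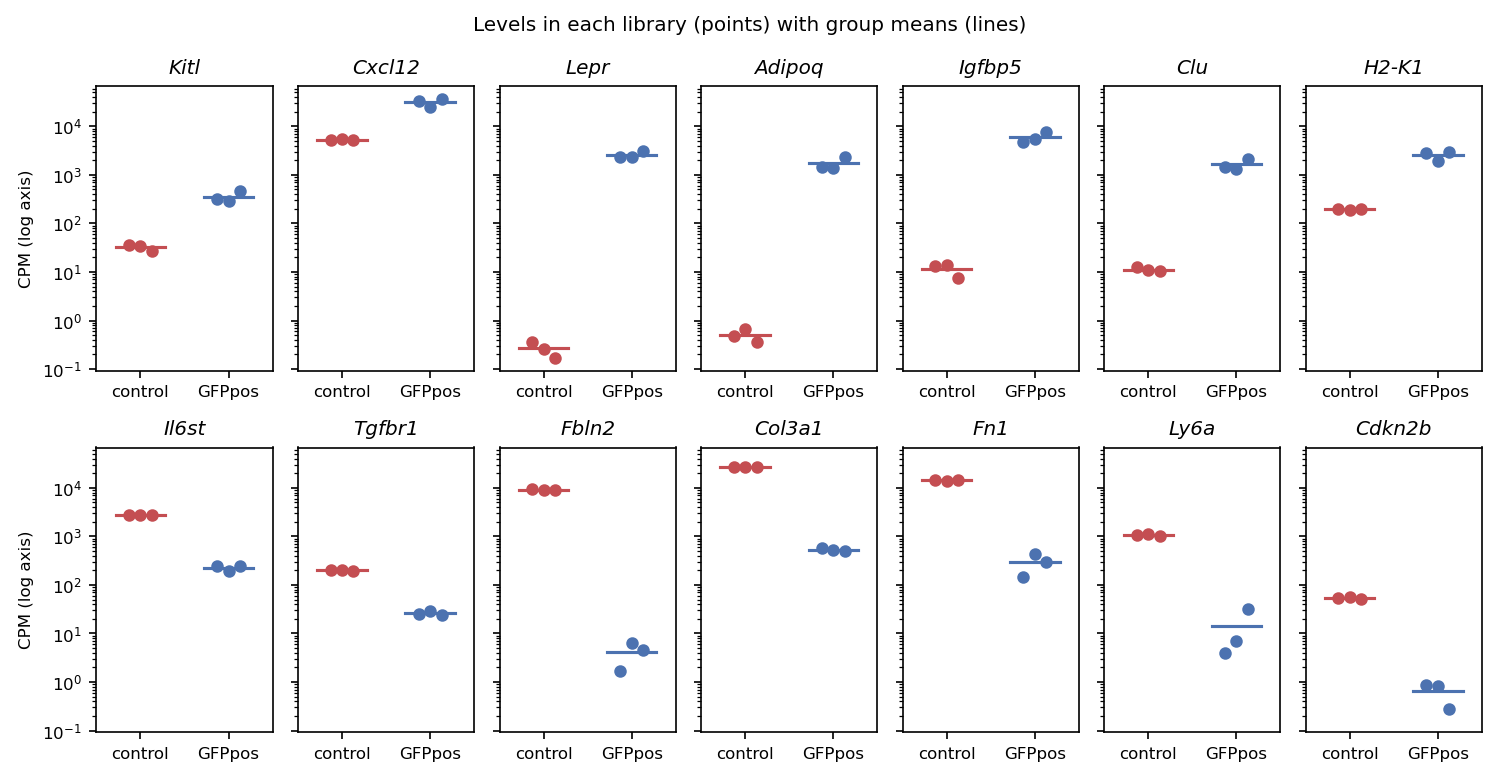
CPM on a log axis of 14 genes in the 3 control and 3 GFPpos libraries, 1 point per library, with lines at the group means. The genes of the upper row (Kitl, Cxcl12, Lepr, Adipoq, Igfbp5, Clu and H2-K1) are lower and those of the lower row (Il6st, Tgfbr1, Fbln2, Col3a1, Fn1, Ly6a and Cdkn2b) higher in every control library than in any GFPpos library.

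Called members ran almost only upward in the lysosome, cholesterol and endoplasmic reticulum lists, almost only downward in the cell cycle, respiratory chain, ribosomal and antigen presentation lists, and in both directions in most lists of signalling and matrix genes. The counts of each list that follows stand beside shares of 30.4% higher and 34.7% lower over all genes.

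**Figure D3:**
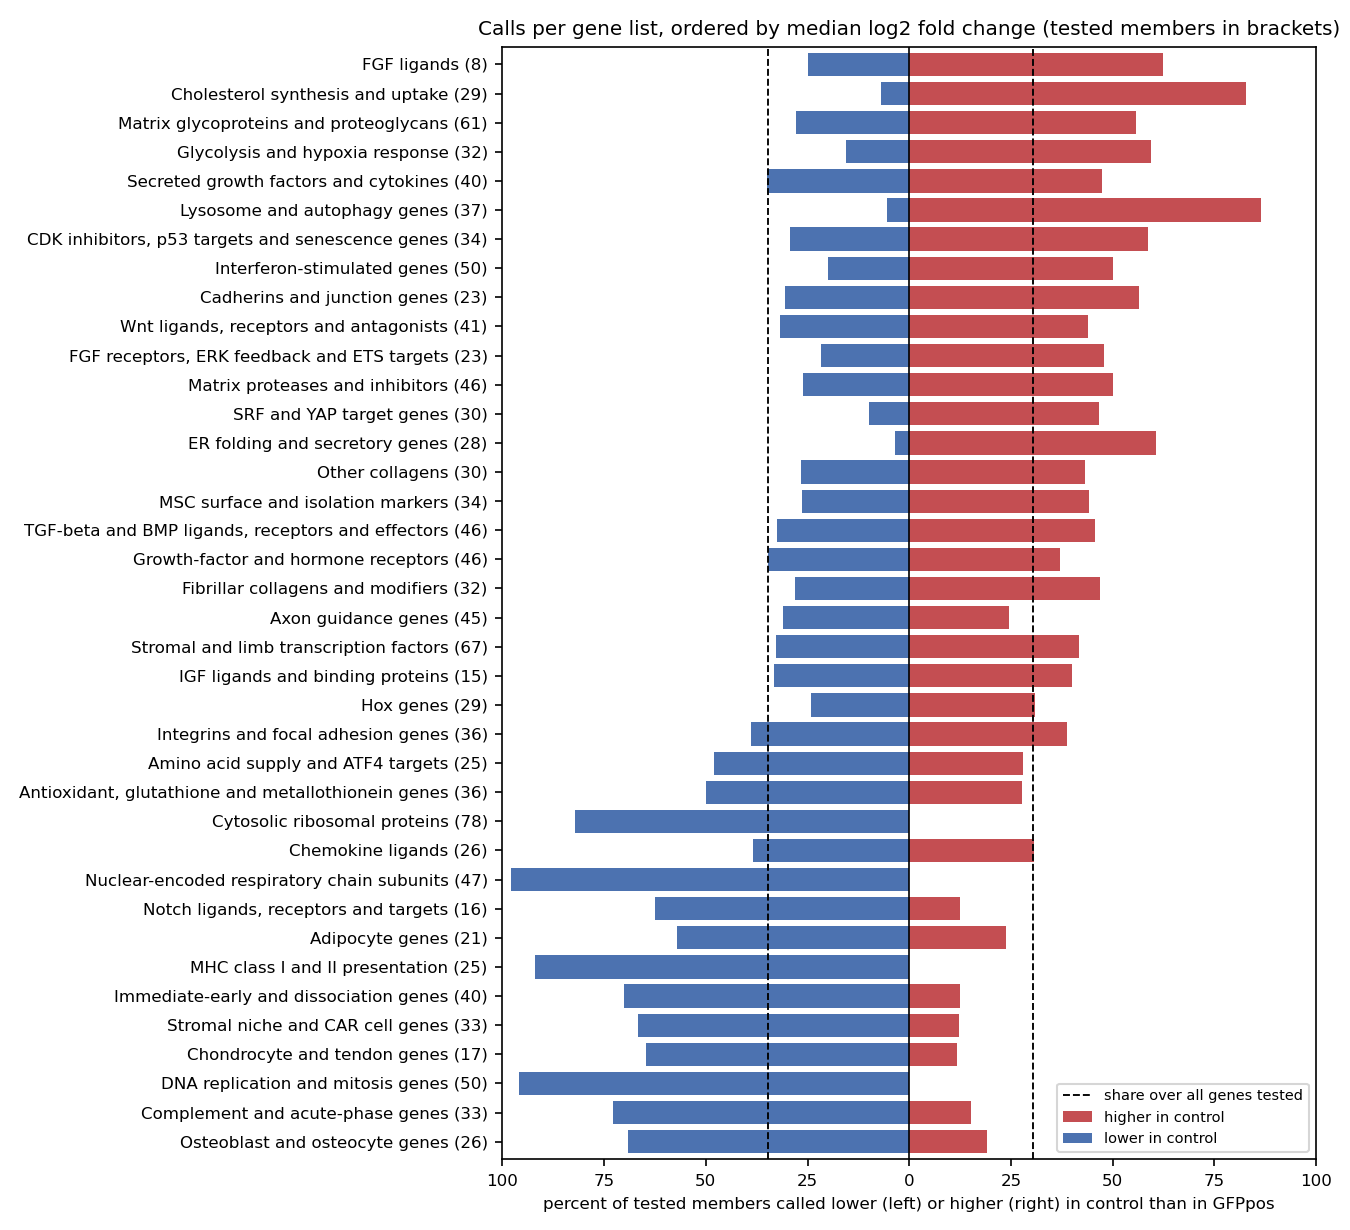
Percent of the tested members of each gene list that were called higher (red, right) or lower (blue, left) in control stroma than in GFPpos cells, ordered by the list's median log2 fold change. Dashed lines mark the shares over all genes tested, 30.4% higher and 34.7% lower.

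Surface proteins used to describe cultured mesenchymal stromal cells moved apart from one another. Of 34 tested, 15 rose and 9 fell (median 0.38, but 0.26 without control replicate 1). Ly6a, which encodes Sca-1, was at 1079, 1097 and 1017 CPM in control stroma, against 3.99, 6.86 and 31.4 CPM in GFPpos cells (log2 fold change 6.25 ± 0.87, adjusted p = 0.000820). Cd248, the pericyte and fibroblast protein endosialin, measured 700.1, 694 and 663 CPM in control stroma, against 22.4, 24.8 and 26.97 CPM in GFPpos cells (log2 fold change 4.79 ± 0.11, adjusted p = 3.82e-06). Pdpn, podoplanin, which fibroblastic reticular cells and early osteocytes carry, stood at 128, 123 and 125 CPM in control stroma, against 2.91, 5.39 and 6.39 CPM in GFPpos cells (log2 fold change 4.68 ± 0.30, adjusted p = 3.40e-05). Fresh libraries were low in all 3 of these genes, although Ly6a in GFPpos replicate 3 was several times that of the others. Ly6a and Ly6c1 (5.28 ± 0.63) lie in a family of near copies, so reads may be split between members and both values are uncertain. Among the lower genes, Cd200, an inhibitory ligand for myeloid cells, was at 0.393, 0.685 and 0.0988 CPM in control stroma, against 108, 238 and 195 CPM in GFPpos cells (log2 fold change -8.83 ± 0.62, adjusted p = 4.97e-05). Icam1, an adhesion ligand of white blood cells, measured 1.27, 1.67 and 1.59 CPM in control stroma, against 93.5, 64.9 and 111 CPM in GFPpos cells (log2 fold change -5.89 ± 0.26, adjusted p = 1.29e-05). Nt5e, which encodes CD73, an ecto-enzyme that makes adenosine and a usual criterion for human cultured stroma, stood at 0.963, 1.01 and 1.02 CPM in control stroma, against 41.9, 13.3 and 25.3 CPM in GFPpos cells (log2 fold change -4.75 ± 0.45, adjusted p = 0.000162). All 3 were close to or under 1 CPM in culture. Fibroblast markers did not rise as a set. Vim (1.42 ± 0.10), S100a4 (4.05 ± 0.32) and Thy1 (3.71 ± 0.40), an intermediate filament, a calcium-binding protein and a surface glycoprotein, were called higher, although Thy1 reached just 5.16, 3.63 and 4.09 CPM in control stroma, against 0.286, 0.249 and 0.444 CPM in GFPpos cells. Of the other markers in that set, Col3a1 and Pdgfra were called higher, Col1a1 and Col1a2 were called lower, and Pdgfrb did not pass. Fn1 was higher in every control library.

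Most genes of bone and cartilage were lower in culture. Of 26 tested osteoblast and osteocyte genes 18 fell and 5 rose (median -4.02), and of 17 cartilage and tendon genes 11 fell and 2 rose (median -3.08). Osteocalcin (Bglap), a hormone and mineral-binding protein of osteoblasts, was at 0.03803, 0.178 and 0 CPM in control stroma, against 1826, 2805 and 3447 CPM in GFPpos cells (log2 fold change -15.16 ± 0.72, adjusted p = 1.50e-05). Its near copy Bglap2 measured 0.165, 0.288 and 0.198 CPM in control stroma, against 1184, 1834 and 2218 CPM in GFPpos cells, and reads may be split between these copies. Mmp13, the collagenase of hypertrophic cartilage and bone, stood at 0.887, 0.767 and 1.89 CPM in control stroma, against 919.7, 2329.9 and 2776 CPM in GFPpos cells (log2 fold change -10.73 ± 0.70, adjusted p = 3.75e-05). Every fresh library lay far above every control library, and no control library reached 2 CPM. Col2a1, the main collagen of cartilage, was at 3.63, 3.64 and 3.57 CPM in control stroma, against 899.5, 2201 and 3117 CPM in GFPpos cells (log2 fold change -9.16 ± 0.57, adjusted p = 3.22e-05). Col11a2, a minor chain of cartilage fibrils, measured 0.165, 0.479 and 0.198 CPM in control stroma, against 978, 1876 and 1696 CPM in GFPpos cells (log2 fold change -12.4 ± 0.54, adjusted p = 1.26e-05). In both genes GFPpos replicate 1 was the lowest of the fresh libraries and still far above culture. The osteogenic factor Sp7 (osterix) fell with them (log2 fold change -5.87 ± 0.26, adjusted p = 1.33e-05), as did the homeobox gene Dlx5, which acts upstream of it (log2 fold change -8.1 ± 0.37, adjusted p = 1.39e-05).

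Not every skeletal gene fell. Periostin (Postn), a matrix protein of periosteum, stood at 1902, 1807 and 2109 CPM in control stroma, against 114, 438 and 252 CPM in GFPpos cells (log2 fold change 2.86 ± 0.46, adjusted p = 0.00163). Tnfrsf11b, which encodes osteoprotegerin, the decoy receptor that blocks osteoclast formation, was at 23.5, 21.2 and 20.9 CPM in control stroma, against 3.04, 8.37 and 7.26 CPM in GFPpos cells (log2 fold change 1.81 ± 0.36, adjusted p = 0.00416). Enpp1, which makes the mineralisation inhibitor pyrophosphate, measured 343, 371 and 350.0 CPM in control stroma, against 60.9, 106 and 129 CPM in GFPpos cells (log2 fold change 1.84 ± 0.26, adjusted p = 0.000924). All 3 were above the fresh libraries in each culture, and Pdpn, given above, was on this list too. On the cartilage list Sox9, the master transcription factor of chondrocytes, stood at 92.9, 91.8 and 91.8 CPM in control stroma, against 9.59, 5.95 and 17.5 CPM in GFPpos cells (log2 fold change 3.07 ± 0.37, adjusted p = 0.000465), while its collagen targets Col2a1 and Col11a2 were at the levels given above. Cilp, a matrix protein of cartilage and tendon, measured 35.7, 26.2 and 30.7 CPM in control stroma, against no counts in GFPpos cells, at least 659.7-fold higher. Sox9 and Cilp were the only called risers of that list. Of 21 tested adipocyte genes 12 fell and 5 rose (median -1.74). Apoe, the lipid carrier apolipoprotein E, was at 44.1, 46.8 and 47.8 CPM in control stroma, against 2113, 1073 and 2138 CPM in GFPpos cells (log2 fold change -5.26 ± 0.31, adjusted p = 2.61e-05). Pnpla2, the lipase that starts the release of stored fat, also fell (log2 fold change -2.61 ± 0.22, adjusted p = 8.84e-05). Scd1 (1.65 ± 0.33), Fasn (1.21 ± 0.13) and Acaca (0.89 ± 0.15), which encode the desaturase, synthase and carboxylase of fatty acid synthesis, were higher. Adipoq, Apoe and Pnpla2 were thus low in the cultures in which these 3 genes of fatty acid synthesis were high.

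Transcription factors of skeletal and stromal identity split in both directions, with 28 higher and 22 lower of 67 tested (median -0.06, but -0.15 without control replicate 1, 0.01 without GFPpos replicate 1 and 0.18 without GFPpos replicate 3). Prrx2, a paired-type homeobox gene of limb mesenchyme, measured 65.8, 69.8 and 65.7 CPM in control stroma, against 0.202, 0.9598 and 0.991 CPM in GFPpos cells (log2 fold change 6.6 ± 0.53, adjusted p = 7.86e-05). Hmga2, a chromatin protein of embryonic and growing cells, stood at 32.2, 31.8 and 32.4 CPM in control stroma, against 1.64, 0.818 and 0.957 CPM in GFPpos cells (log2 fold change 4.8 ± 0.29, adjusted p = 2.83e-05). Tbx18, a T-box factor of pericytes and mesenchyme, was at 47.03, 45.7 and 49.1 CPM in control stroma, against 8.33, 10.7 and 4.75 CPM in GFPpos cells (log2 fold change 2.58 ± 0.29, adjusted p = 0.000306). The control libraries lay close together and above the fresh ones for all of them. Mef2c, a factor of osteocytes and muscle, measured 6.58, 4.65 and 5.38 CPM in control stroma, against 80.5, 202 and 122 CPM in GFPpos cells (log2 fold change -4.6 ± 0.38, adjusted p = 8.79e-05), and the limb factor Alx4 had no counts in control stroma, against 13.4, 12.3 and 18.7 CPM in GFPpos cells, at least 366-fold lower. The Hox genes, which record the position of a mesenchymal cell along the body and limb, had 9 higher and 7 lower of 29 tested. Beside the counts of both lists, the shares over all genes were 30.4% higher and 34.7% lower. Hoxb9 stood at 16.4, 15.7 and 17.7 CPM in control stroma, against 0.0119, 0 and 0 CPM in GFPpos cells (3293-fold higher, 95% counting interval 591 to 130106, adjusted p = 1.02e-05). Hoxc8 was at 31.9, 28.5 and 31.2 CPM in control stroma, against 2.37, 3.71 and 2.32 CPM in GFPpos cells (log2 fold change 3.45 ± 0.22, adjusted p = 3.72e-05). Hoxc10 measured 43.7, 40.96 and 41.6 CPM in control stroma, against 5.16, 6.79 and 11.5 CPM in GFPpos cells (log2 fold change 2.43 ± 0.29, adjusted p = 0.000440). Each was higher in every control library, and Hoxb9 was near 0 in fresh cells. Hoxb7 (4.51 ± 0.66) was also higher, whereas Hoxa7 (-1.12 ± 0.23) and Hoxb2 (-0.84 ± 0.20, adjusted p = 0.160 with all 12 libraries) were lower. Hox genes lie close together and can overlap antisense transcripts, and since strand-specific counting is not stated, reads of such pairs cannot be told apart.

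Basic FGF was added to the medium, and its receptors did not move as a block. Fgfr1, the receptor of mesenchyme that binds basic FGF, stood at 406, 409.6 and 414 CPM in control stroma, against 172, 231 and 236 CPM in GFPpos cells (log2 fold change 0.94 ± 0.13, adjusted p = 0.000891). Fgfr2 was at 11.2, 12.2 and 10.3 CPM in control stroma, against 276, 245 and 423 CPM in GFPpos cells (log2 fold change -4.81 ± 0.24, adjusted p = 1.73e-05). Fgfr3, which restrains growth of cartilage and bone, measured 0.634, 0.657 and 0.339 CPM in control stroma, against 25.9, 13.7 and 20.8 CPM in GFPpos cells (log2 fold change -5.2 ± 0.39, adjusted p = 6.01e-05). None of Fgfr1, Fgfr2 and Fgfr3 overlapped between groups, as held for 74.2% of all genes, with Fgfr1 higher and the other 2 lower in culture. Fgfr4 was not tested, since it had 2 counts in control stroma and 1 in GFPpos cells, and Fgfrl1 (0.31 ± 0.21) did not pass, except without GFPpos replicate 1, where its adjusted p was 0.0496. Across the receptors, feedback inhibitors and ETS targets of this pathway 11 members rose and 5 fell of 23 tested (median 0.61).

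The feedback inhibitors went in both directions too. Dusp4, a phosphatase that switches off ERK in the nucleus, stood at 55.7, 48.1 and 56.6 CPM in control stroma, against 4.95, 6.896 and 5.95 CPM in GFPpos cells (log2 fold change 3.17 ± 0.16, adjusted p = 1.66e-05). Spred1, an inhibitor of Ras activation, was at 291, 294 and 291 CPM in control stroma, against 57.5, 51.4 and 73.98 CPM in GFPpos cells (log2 fold change 2.26 ± 0.14, adjusted p = 3.53e-05). Spry2, a Sprouty inhibitor of receptor signalling, measured 14.8, 14.1 and 16.2 CPM in control stroma, against 2.05, 3.89 and 3.81 CPM in GFPpos cells (log2 fold change 2.21 ± 0.28, adjusted p = 0.000551). Its relative Spry1 moved the other way, at 32.8, 31.4 and 32.2 CPM in control stroma, against 222, 74.2 and 127 CPM in GFPpos cells (log2 fold change -2.14 ± 0.37, adjusted p = 0.00226). Spry4 (0.22 ± 0.12) and the cytoplasmic ERK phosphatase gene Dusp6 (0.06 ± 0.20), both standard readouts of FGF signalling, did not pass and overlapped between groups, at 31.7, 33.6 and 34.8 CPM of Dusp6 in control stroma, against 31.3, 23.3 and 41.2 CPM in GFPpos cells. The ETS factors Etv4 (2.19 ± 0.59) and Etv5 (1.09 ± 0.21) were higher and Etv1 (-0.24 ± 0.19) did not pass. Ccnd1, which encodes cyclin D1 and carries growth factor signals to the cell cycle, stood at 37.01, 34.1 and 26.8 CPM in control stroma, against 6.68, 7.27 and 4.94 CPM in GFPpos cells (log2 fold change 2.37 ± 0.20, adjusted p = 0.000103). Myc, another growth target, was at 49.5, 50.5 and 52.2 CPM in control stroma, against 142, 110.0 and 145 CPM in GFPpos cells (log2 fold change -1.38 ± 0.12, adjusted p = 0.000110). The heparan sulfate proteoglycan gene Gpc1, a coreceptor, was lower as well (log2 fold change -1.56 ± 0.13, adjusted p = 9.79e-05). Phlda1 (1.74 ± 0.37), Dusp5 (1.04 ± 0.33), Sdc4 (0.83 ± 0.26) and Spred2 (0.61 ± 0.22) rose too, but the calls of Dusp5, Sdc4 and Spred2 were lost when any single control library was left out, with adjusted p of 0.0577 to 0.124. Those of Dusp5 and Sdc4 were also lost without GFPpos replicate 2 (adjusted p of 0.0772 and 0.0809), and that of Dusp5 without GFPpos replicate 3 (0.0632). Etv4 was lost without control replicate 1 (adjusted p = 0.0552) or 3 (adjusted p = 0.0515). Flrt3 (-0.31 ± 0.34), Il17rd (-1.12 ± 0.52) and Spred3 (3.04 ± 1.20, adjusted p = 0.0606) did not pass, although Spred3 did without GFPpos replicate 2 (adjusted p = 0.0156) or 3 (0.0242) and under 4 other alternatives (0.0121 to 0.0463).

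Stroma also makes FGFs of its own. Fgf10, a paracrine factor that mesenchyme sends to epithelium, measured 88.4, 93.1 and 93.97 CPM in control stroma, against 0.0238, 0 and 0 CPM in GFPpos cells (9114-fold higher, 95% counting interval 2523 to 75259, adjusted p = 3.97e-06). Fgf7, the keratinocyte growth factor, stood at 237, 259 and 253 CPM in control stroma, against 62.7, 83.4 and 105 CPM in GFPpos cells (log2 fold change 1.58 ± 0.18, adjusted p = 0.000383). Fgf18, a ligand active in bone and cartilage, was at 11.8, 11.2 and 10.5 CPM in control stroma, against 0.429, 0.391 and 2.46 CPM in GFPpos cells (log2 fold change 3.36 ± 0.75, adjusted p = 0.00684). All 3 were higher in each culture, and Fgf10 had 2 counts in all fresh libraries together. Fgf1 fell (log2 fold change -2.72 ± 0.26, adjusted p = 0.000155), and Fgf13, a member of the family that stays inside the cell, had no counts in control stroma, against 10.7, 16.8 and 12.8 CPM in GFPpos cells, at least 332-fold lower. In all, 5 of 8 tested ligands rose and 2 fell.

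**Figure D4:**
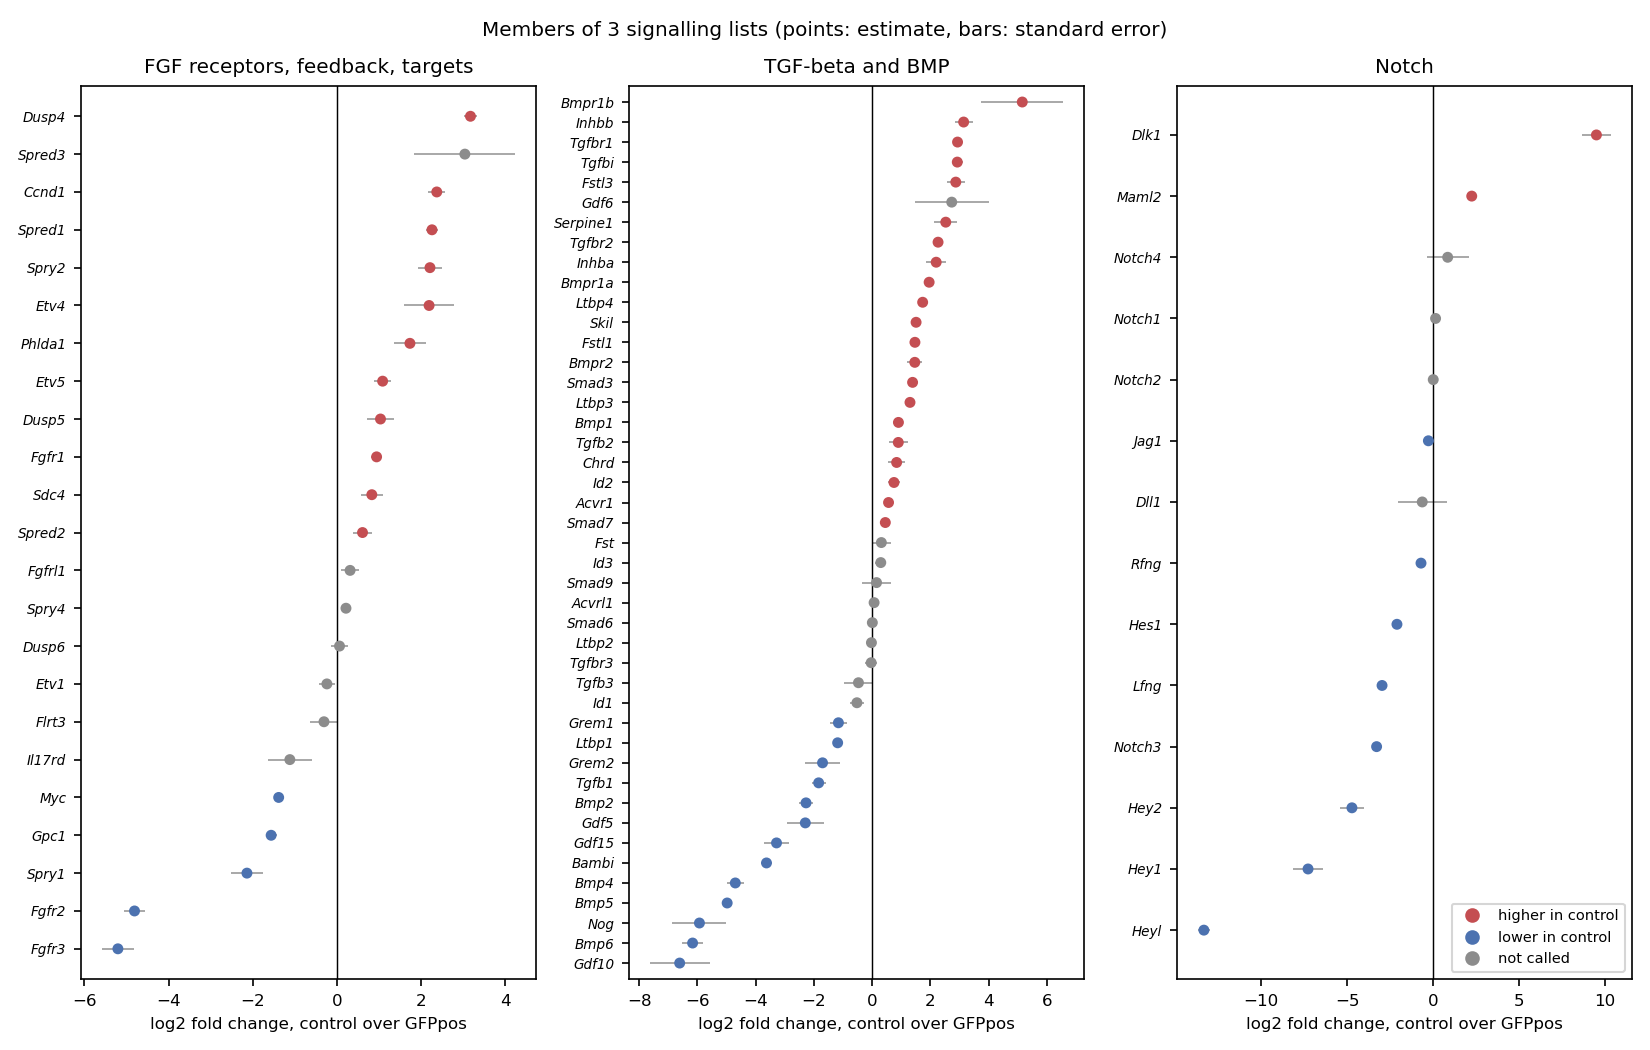
Log2 fold change of control over GFPpos cells, with its standard error, for the tested members of the FGF receptor and feedback, TGF-beta and BMP, and Notch lists, leaving out genes with no counts in a whole group (Bmp3, Bmp7 and Nrarp). Red points were called higher, blue points lower and grey points neither. The receptor Tgfbr1 lies to the right and the ligands Bmp6 and Gdf10 to the left.

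Receptors of the TGF-beta family on the list were mostly higher in culture, while its ligands of the BMP branch were lower. By a grouping made after the values were seen, 6 of the list's 8 tested receptors were called higher and none lower. All 6 tested ligands from Bmp2 to Bmp7 were called lower. Over all genes, 30.4% were higher and 34.7% lower. The grouping describes these values and tests nothing, and receptors that the list leaves out were not counted. Tgfbr1, the type I receptor, measured 205, 201 and 197 CPM in control stroma, against 25.5, 29.2 and 24.2 CPM in GFPpos cells (log2 fold change 2.94 ± 0.10, adjusted p = 6.00e-06). Inhbb, the beta B chain of activins and inhibins, stood at 89.3, 90.7 and 86.7 CPM in control stroma, against 5.74, 10.9 and 13.6 CPM in GFPpos cells (log2 fold change 3.15 ± 0.31, adjusted p = 0.000176). Tgfbi, a matrix protein named for its induction by TGF-beta, was at 237, 241 and 244 CPM in control stroma, against 40.4, 29.5 and 24.9 CPM in GFPpos cells (log2 fold change 2.93 ± 0.18, adjusted p = 3.29e-05). The groups were apart in each of these. Bmp3, a BMP made by osteoblasts, had no counts in control stroma, against 47.3, 97.8 and 91.8 CPM in GFPpos cells, at least 1950.0-fold lower. Bmp7 likewise had none, against 6.098, 15.2 and 15.1 CPM in GFPpos cells, at least 299.8-fold lower. Bmp6 measured 6.36, 4.64 and 6.81 CPM in control stroma, against 304, 362 and 611 CPM in GFPpos cells (log2 fold change -6.16 ± 0.35, adjusted p = 2.38e-05). In the family 21 members rose and 15 fell of 46 tested (median 0.31, but 0.53 without GFPpos replicate 1 and 0.12 without GFPpos replicate 2). Fstl3, a secreted binder of activin, was also higher (log2 fold change 2.88 ± 0.30, adjusted p = 0.000238), and Gdf10, a BMP3-like ligand, lower (log2 fold change -6.61 ± 1.03, adjusted p = 0.00139).

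Receptors for other factors included genes of either direction. Il6st, which encodes gp130, the shared signal chain of the interleukin 6 family, stood at 2726, 2767 and 2716 CPM in control stroma, against 240.0, 189.6 and 240.3 CPM in GFPpos cells (log2 fold change 3.62 ± 0.13, adjusted p = 7.84e-06). Osmr, its partner in the oncostatin M receptor, was at 513, 516 and 539 CPM in control stroma, against 85.1, 82.7 and 113 CPM in GFPpos cells (log2 fold change 2.48 ± 0.14, adjusted p = 2.38e-05). Lpar1, a receptor for lysophosphatidic acid, a lipid abundant in serum, measured 341, 339 and 332 CPM in control stroma, against 53, 76.1 and 75.02 CPM in GFPpos cells (log2 fold change 2.31 ± 0.15, adjusted p = 4.00e-05). The control libraries lay several times above every fresh library for these 3 receptors. A hormone receptor of bone cells was among the lower ones. Pth1r, the parathyroid hormone receptor of osteoblasts, stood at 14.96, 14.4 and 15.5 CPM in control stroma, against 290.0, 353 and 402 CPM in GFPpos cells (log2 fold change -4.54 ± 0.15, adjusted p = 6.00e-06). Each culture lay below every fresh library. The erythropoietin receptor gene Epor fell too (log2 fold change -7.14 ± 0.17, adjusted p = 3.82e-06), a gene that red cell precursors also express, and the part of those cells in the fall was not tested. Of 46 receptors 17 rose and 16 fell (median 0.29, but 0.46 without GFPpos replicate 1 and 0.16 without GFPpos replicate 2), shares near the 30.4% higher and 34.7% lower over all genes.

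Secreted factors also moved both ways, with 19 higher and 14 lower of 40 tested (median 0.75). Over all genes, 30.4% were higher and 34.7% lower, so the lower share of this list was near that of all genes. Il33, a nuclear alarm cytokine of stroma, measured 323, 385 and 369 CPM in control stroma, against 2.62, 3.27 and 5.81 CPM in GFPpos cells (log2 fold change 6.53 ± 0.34, adjusted p = 1.87e-05). Figf, which encodes the lymphatic growth factor VEGF-D, stood at 132, 138 and 135 CPM in control stroma, against 2.22, 0.622 and 2.22 CPM in GFPpos cells (log2 fold change 6.3 ± 0.45, adjusted p = 5.22e-05). Bdnf, a neurotrophin, was at 33.1, 34.9 and 36.8 CPM in control stroma, against 0.143, 0.675 and 0.718 CPM in GFPpos cells (log2 fold change 6.14 ± 0.54, adjusted p = 0.000115). Fresh cells held little of them. The EGF receptor ligand Ereg measured 13.2, 10.9 and 12.03 CPM in control stroma, against no counts in GFPpos cells, at least 258-fold higher. Vegfc, the relative of VEGF-D that also drives lymphatic growth, moved the other way, at 3.05, 3.96 and 2.96 CPM in control stroma, against 140.3, 85.5 and 136 CPM in GFPpos cells (log2 fold change -5.18 ± 0.25, adjusted p = 1.59e-05). Mdk, the heparin-binding factor midkine, measured 1.06, 0.739 and 0.705 CPM in control stroma, against 92.95, 81.99 and 140.5 CPM in GFPpos cells (log2 fold change -6.97 ± 0.31, adjusted p = 1.33e-05). Pdgfd, a ligand of Pdgfrb, stood at 0.317, 0.219 and 0.324 CPM in control stroma, against 25.3, 57.2 and 65.3 CPM in GFPpos cells (log2 fold change -7.41 ± 0.47, adjusted p = 3.54e-05). Placental growth factor (Pgf) fell alongside (log2 fold change -6.48 ± 0.30, adjusted p = 1.46e-05).

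The binding proteins that set the supply of insulin-like growth factors included genes of either direction, near the shares over all genes (30.4% higher and 34.7% lower), with 6 members higher and 5 lower of 15 (median -0.08, but 0.14 without GFPpos replicate 1, -0.28 without GFPpos replicate 2, -0.05 without control replicate 3 and -0.03 without GFPpos replicate 3). Igfbp5, the binding protein that bone matrix stores, was at 13.5, 14.2 and 7.41 CPM in control stroma, against 4708, 5433 and 7812 CPM in GFPpos cells (log2 fold change -9.0 ± 0.41, adjusted p = 1.43e-05). Igfbp6 measured 203, 199 and 196 CPM in control stroma, against 0.0476, 9.92 and 10.1 CPM in GFPpos cells (log2 fold change 4.91 ± 1.21, adjusted p = 0.0101), and replicate 1 of the fresh cells was far below the other 2. The ligand gene Igf1 stood at 166, 168 and 168 CPM in control stroma, against 127, 104 and 109 CPM in GFPpos cells (log2 fold change 0.56 ± 0.09, adjusted p = 0.00184), a small rise whose adjusted p was 0.192 with all 12 libraries. Igf2, the fetal growth factor, was at 0.177, 0.0274 and 0.268 CPM in control stroma, against 22.1, 6.91 and 11.7 CPM in GFPpos cells (log2 fold change -6.41 ± 0.80, adjusted p = 0.000519). The groups did not overlap for these 4 genes. Igf2bp2, which encodes an RNA-binding protein of the Igf2 message, was higher at 110.5, 114 and 113 CPM in control stroma, against 9.302, 8.37 and 13.8 CPM in GFPpos cells (log2 fold change 3.42 ± 0.20, adjusted p = 2.61e-05). Its relatives Igf2bp3 (3.06 ± 0.50) and Igf2bp1 (4.33 ± 1.55) were also called, but Igf2bp1 lost its call when any single control library was left out (adjusted p of 0.101 to 0.124) and without GFPpos replicate 2 (0.0756). The hormone gene Stc1, stanniocalcin, measured 58.6, 70.04 and 55.6 CPM in control stroma, against 0.953, 0.711 and 0.496 CPM in GFPpos cells (log2 fold change 6.39 ± 0.26, adjusted p = 1.02e-05). Igfbp3 (-1.68 ± 0.24, adjusted p = 0.0646 with all 12 libraries), Igfbp2 (-2.43 ± 0.56, adjusted p = 0.0563 without control replicate 2 and 0.0588 without control replicate 3) and the binding protein protease Pappa (-1.46 ± 0.17) were lower. Igfbp4 (-0.33 ± 0.32), Igfbp7 (-0.08 ± 0.21), Stc2 (-1.35 ± 0.67) and Pappa2 (3.0 ± 1.56) did not pass, although Stc2 and Pappa2 did without GFPpos replicate 1 (adjusted p of 0.0187 and 0.00127) and Pappa2 with voom (0.0497).

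Genes of the Wnt pathway had 18 higher and 13 lower members of 41 tested (median 0.63, but 0.29 without GFPpos replicate 3). Shares over all genes were 30.4% higher and 34.7% lower, and the lower share of this list was near the latter. Against a fold threshold of 2 the list had 10 higher and 11 lower members. Sfrp1, a secreted Wnt antagonist, stood at 3082, 3169 and 3197 CPM in control stroma, against 128, 93.9 and 133 CPM in GFPpos cells (log2 fold change 4.74 ± 0.17, adjusted p = 7.47e-06). The receptor gene Fzd2 was at 142, 149 and 141 CPM in control stroma, against 7.79, 7.68 and 7.11 CPM in GFPpos cells (log2 fold change 4.26 ± 0.09, adjusted p = 3.82e-06). Wif1, another secreted antagonist, measured 0.177, 0.0274 and 0 CPM in control stroma, against 305, 123 and 189.7 CPM in GFPpos cells (log2 fold change -11.46 ± 0.74, adjusted p = 3.69e-05). Of these antagonists Sfrp1 was high and Wif1 next to absent in culture. Dkk2 (4.31 ± 0.79) and Lgr6 (3.68 ± 0.44), an antagonist and an R-spondin receptor, were higher, and Wnt4 (-3.97 ± 0.35), Fzd9 (-6.28 ± 0.59) and the feedback gene Nkd1 (-3.88 ± 0.40) lower.

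Notch pathway genes were mostly lower in culture. Of 16 tested genes 10 were lower and 2, Dlk1 and the coactivator gene Maml2 (2.25 ± 0.30), were higher (median -1.40, but -2.14 without control replicate 3). Heyl, a transcriptional repressor that Notch induces in mural cells, stood at 0, 0.0274 and 0 CPM in control stroma, against 101, 120.3 and 115 CPM in GFPpos cells (12304-fold lower, 95% counting interval 3406 to 101603, adjusted p = 4.34e-06). Nrarp, a feedback inhibitor and direct target of Notch, had no counts in control stroma, against 23.3, 29.1 and 12.2 CPM in GFPpos cells, at least 532-fold lower. Notch3, the receptor of pericytes, was at 29.4, 28.6 and 26.4 CPM in control stroma, against 336, 271 and 218 CPM in GFPpos cells (log2 fold change -3.29 ± 0.17, adjusted p = 1.93e-05). All 3 were lower in each culture. The glycosyltransferase gene Lfng, which tunes ligand choice, was lower too (log2 fold change -2.97 ± 0.20, adjusted p = 4.68e-05). Guidance genes, in comparison, had 11 higher and 14 lower of 45 (median 0.08, but 0.03 without control replicate 3, 0.04 without GFPpos replicate 2 and 0.16 without GFPpos replicate 3), against 30.4% higher and 34.7% lower over all genes, and had 15 higher and 14 lower without GFPpos replicate 1 and 17 and 16 without GFPpos replicate 3. Sema3c, a secreted semaphorin, measured 35.8, 37.6 and 37.1 CPM in control stroma, against 0, 0.569 and 0 CPM in GFPpos cells (log2 fold change 7.73 ± 1.11, adjusted p = 0.000942). Ephb3, a receptor for ephrins, stood at 109, 108 and 106 CPM in control stroma, against 4.03, 8.496 and 5.4 CPM in GFPpos cells (log2 fold change 4.17 ± 0.28, adjusted p = 4.24e-05). Sema4d, a semaphorin that acts on osteoblasts and that blood cells also make, was at 0, 0.137 and 0.113 CPM in control stroma, against 49.3, 74.5 and 48.9 CPM in GFPpos cells (log2 fold change -9.44 ± 0.59, adjusted p = 3.28e-05). These were high in culture for the first 2 and in fresh cells for Sema4d.

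In the matrix, type I collagen, the main protein of bone, was lower and type III collagen higher. Col1a1 measured 11355, 11379 and 11386 CPM in control stroma, against 74111, 108376 and 94960.0 CPM in GFPpos cells (log2 fold change -3.02 ± 0.20, adjusted p = 4.01e-05), and Col1a2 had a log2 fold change of -2.77 ± 0.20. Col3a1, the fibrillar collagen of soft tissue, stood at 26405, 26899 and 27469 CPM in control stroma, against 571, 513 and 492 CPM in GFPpos cells (log2 fold change 5.68 ± 0.15, adjusted p = 4.34e-06). Lox, the enzyme that crosslinks collagen, was at 5854, 6099.8 and 6008 CPM in control stroma, against 559, 927 and 951 CPM in GFPpos cells (log2 fold change 2.88 ± 0.22, adjusted p = 7.27e-05). P4ha3, a proline hydroxylase subunit needed to fold collagen, measured 131, 138 and 137 CPM in control stroma, against 1.76, 9.06 and 8.89 CPM in GFPpos cells (log2 fold change 4.38 ± 0.59, adjusted p = 0.000738). The control libraries lay above every fresh library for Col3a1, Lox and P4ha3. Fibrillar chains and their modifiers had 15 higher and 9 lower of 32 (median 0.22, but 0.34 without GFPpos replicate 3), and the other collagens 13 higher and 8 lower of 30 (median 0.46, but 0.21 without GFPpos replicate 1 and 0.97 without GFPpos replicate 3). Col28a1, a beaded collagen known from peripheral nerve, stood at 115, 122 and 126 CPM in control stroma, against 0, 1.26 and 1.45 CPM in GFPpos cells (log2 fold change 7.14 ± 0.95, adjusted p = 0.000667). Col22a1, a collagen of tissue junctions, was at 0, 0.0548 and 0 CPM in control stroma, against 289.6, 496 and 478 CPM in GFPpos cells (log2 fold change -14.38 ± 0.57, adjusted p = 1.00e-05). Col13a1, a transmembrane collagen, measured 0.0254, 0 and 0.0141 CPM in control stroma, against 33.7, 65.8 and 66.3 CPM in GFPpos cells (3892-fold lower, 95% counting interval 1331 to 18875, adjusted p = 1.50e-05). The last pair were close to 0 in culture. Col15a1 (3.26 ± 0.22) and Col4a5 (2.9 ± 0.28), of basement membranes, were higher. Col14a1 (2.48 ± 0.87) was called too, but not without GFPpos replicate 2 (adjusted p = 0.0980) or when any single control library was left out (0.0884 to 0.0920).

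Glycoproteins and proteoglycans showed 34 higher and 17 lower members of 61 (median 1.23). Fbln2, an elastic fibre and basement membrane protein, stood at 9369.7, 9104 and 9237 CPM in control stroma, against 1.67, 6.26 and 4.55 CPM in GFPpos cells (log2 fold change 11.13 ± 0.62, adjusted p = 2.24e-05). Has2, which makes hyaluronan, was at 146, 154 and 148 CPM in control stroma, against 1.11, 0 and 0 CPM in GFPpos cells (log2 fold change 8.44 ± 1.04, adjusted p = 0.000479). Vcan, a large proteoglycan that binds hyaluronan, measured 555, 489 and 511 CPM in control stroma, against 7.43, 4.76 and 5.61 CPM in GFPpos cells (log2 fold change 6.44 ± 0.21, adjusted p = 6.00e-06). Each fresh library held under 10 CPM of these genes and each culture over 100 CPM. Mfap5, a microfibril protein of fibroblasts, followed them (log2 fold change 7.01 ± 0.62, adjusted p = 0.000116). Lum, the collagen-binding proteoglycan lumican, stood at 1.98, 1.64 and 2.34 CPM in control stroma, against 558, 616 and 557 CPM in GFPpos cells (log2 fold change -8.18 ± 0.18, adjusted p = 3.82e-06). Spon1, a secreted adhesion protein, was at 0.241, 0.685 and 0.578 CPM in control stroma, against 338, 292 and 442 CPM in GFPpos cells (log2 fold change -9.48 ± 0.40, adjusted p = 1.16e-05). Eln, elastin itself, measured 1.55, 1.78 and 2.54 CPM in control stroma, against 36.9, 40.1 and 22.9 CPM in GFPpos cells (log2 fold change -4.09 ± 0.31, adjusted p = 6.20e-05). Elastin was thus lower while the microfibril gene Mfap5 was higher.

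**Figure D5:**
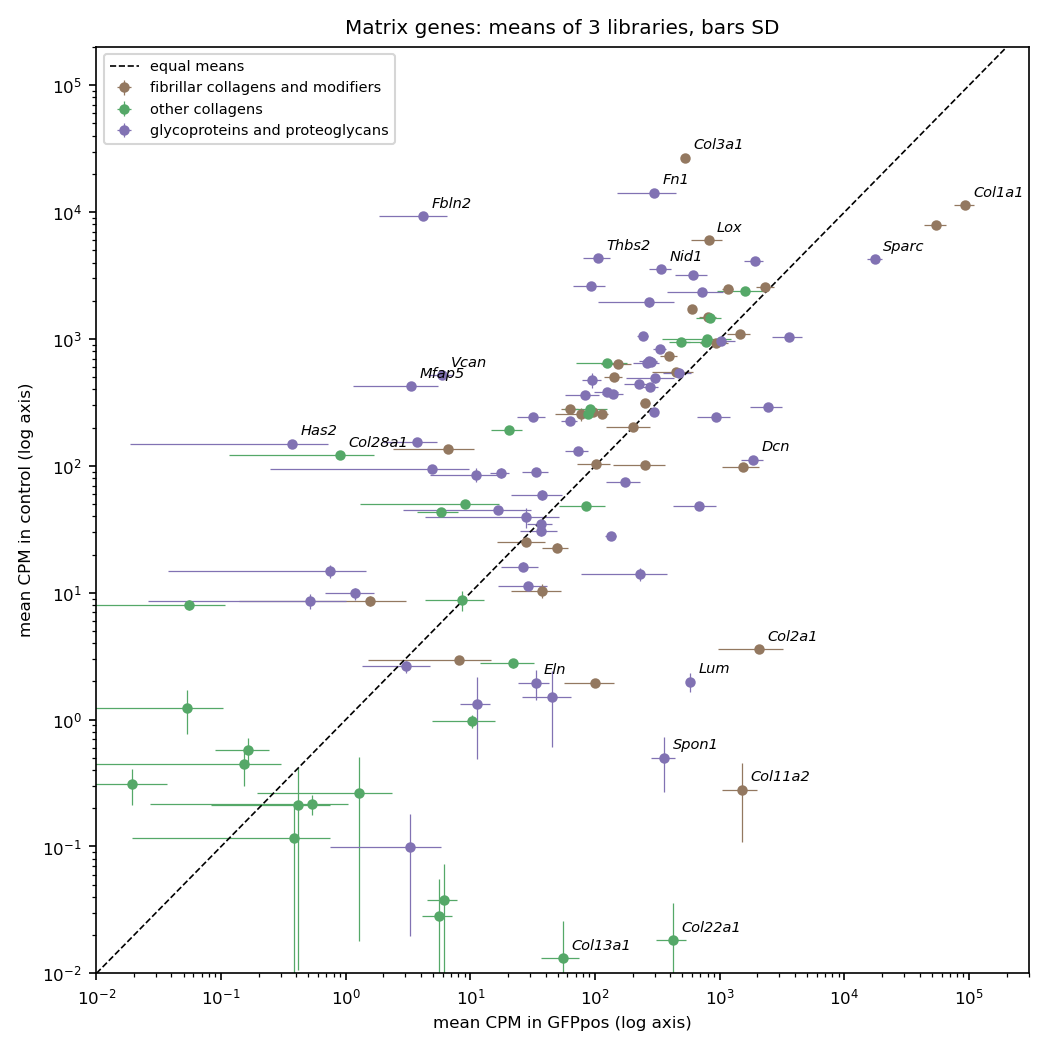
Mean CPM of the tested collagen, glycoprotein and proteoglycan genes in control stroma (vertical, log axis) and in GFPpos cells (horizontal, log axis), with bars for the SD of 3 libraries and a dashed line at equal means. Genes with a mean of 0 in a group are not drawn. Fbln2, Has2, Mfap5 and Vcan lie far above the line, and Col22a1, Col11a2, Spon1 and Lum far below it.

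Matrix-degrading enzymes had 23 higher and 12 lower members of 46 (median 0.57). Plat, the tissue plasminogen activator, stood at 287, 293 and 286 CPM in control stroma, against 2.48, 4.12 and 0 CPM in GFPpos cells (log2 fold change 7.03 ± 1.06, adjusted p = 0.00119). Adam19, a membrane protease, was at 139, 148 and 154 CPM in control stroma, against 7.81, 4.94 and 6.15 CPM in GFPpos cells (log2 fold change 4.54 ± 0.18, adjusted p = 1.02e-05). Adamts15, a protease of proteoglycans such as versican, measured 358, 311 and 311 CPM in control stroma, against 16.98, 16.9 and 20.7 CPM in GFPpos cells (log2 fold change 4.16 ± 0.13, adjusted p = 6.00e-06). No fresh library came near the cultures in these enzymes. Mmp3, stromelysin, was called higher (log2 fold change 3.93 ± 1.06, adjusted p = 0.0147) but not without GFPpos replicate 2 (adjusted p = 0.0513). A2m, a broad protease inhibitor of plasma, had no counts in control stroma, against 310.2, 294 and 463 CPM in GFPpos cells, at least 8785-fold lower. Mmp8 (-10.4 ± 1.85) and Mmp9 (-6.24 ± 1.23) were lower and varied widely among fresh libraries. Mmp8, a neutrophil enzyme, was at 66.9, 10.7 and 2.48 CPM in GFPpos cells, highest in the replicate with the most neutrophil markers. Mmp9 was highest in another replicate, at 119.6, 248 and 7.31 plain CPM in GFPpos replicates 1, 2 and 3. The part of neutrophils in these falls was not tested.

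Adhesion receptors were evenly split, with 14 integrin and focal adhesion genes higher and 14 lower of 36 (median -0.18, but -0.31 without GFPpos replicate 1 and -0.06 without GFPpos replicate 3). The shares over all genes were 30.4% higher and 34.7% lower. Itga5, which pairs with the beta 1 chain to bind fibronectin, stood at 305, 308 and 331 CPM in control stroma, against 48.4, 51.4 and 37.2 CPM in GFPpos cells (log2 fold change 2.79 ± 0.14, adjusted p = 1.67e-05). Itgav, the alpha chain of vitronectin receptors, was at 248, 234 and 229.8 CPM in control stroma, against 68.3, 85.7 and 99.9 CPM in GFPpos cells (log2 fold change 1.49 ± 0.14, adjusted p = 0.000171). Itga10, a collagen receptor of cartilage and bone cells, measured 0.786, 0.589 and 0.395 CPM in control stroma, against 21.4, 32.5 and 44.2 CPM in GFPpos cells (log2 fold change -5.78 ± 0.40, adjusted p = 4.65e-05). So Itga5 and Itgav were high and Itga10 low in each culture. The other collagen-binding chain Itga1 fell as well (log2 fold change -2.61 ± 0.24, adjusted p = 0.000143). Itga4, also a chain of blood cell integrins, fell (log2 fold change -4.96 ± 0.32, adjusted p = 3.80e-05), and Itgb3, which platelets carry, was lower (log2 fold change -3.21 ± 0.84, adjusted p = 0.0133) but not when any single control library was left out (adjusted p of 0.0510 to 0.0541). Among cadherins and junction genes 13 rose and 7 fell of 23 (median 0.64). The protocadherin gene Pcdh19 stood at 243, 239 and 236 CPM in control stroma, against 17.7, 37.5 and 46.4 CPM in GFPpos cells (log2 fold change 2.82 ± 0.34, adjusted p = 0.000421). Cdh2, N-cadherin, was at 62.5, 62.96 and 61.3 CPM in control stroma, against 263, 256 and 328 CPM in GFPpos cells (log2 fold change -2.18 ± 0.12, adjusted p = 1.96e-05). Cadm1, an immunoglobulin-type adhesion molecule, measured 0, 0.0274 and 0.0988 CPM in control stroma, against 102, 179 and 163 CPM in GFPpos cells (log2 fold change -11.77 ± 0.55, adjusted p = 1.46e-05). Protocadherins Pcdh7 (2.4 ± 0.38) and Pcdh9 (2.37 ± 0.38) moved with Pcdh19. Panx3, a channel of osteoblasts and chondrocytes, had no counts in control stroma, against 7.96, 16.2 and 14.9 CPM in GFPpos cells, at least 321-fold lower.

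Genes that serum and spreading on a stiff surface are known to induce through SRF and YAP were more often higher than lower, with 14 higher, 3 lower and 13 not passing of 30 (median 0.50). Over all genes, 30.4% were higher and 34.7% lower. Without GFPpos replicate 1 the list had 16 higher and 6 lower members. With genes over 2 times higher in GFPneg than in GFPpos cells left out, it had 12 and 7 (median 0.30). None of its own members was such a gene. Axl, a receptor tyrosine kinase and YAP target, stood at 835, 851 and 869 CPM in control stroma, against 189, 112 and 75.4 CPM in GFPpos cells (log2 fold change 2.76 ± 0.33, adjusted p = 0.000410). Ajuba, a scaffold of the Hippo pathway, was at 66.2, 67.6 and 71.5 CPM in control stroma, against 15.7, 10.3 and 21.4 CPM in GFPpos cells (log2 fold change 2.12 ± 0.25, adjusted p = 0.000424). Tpm1, a tropomyosin of contractile cells, measured 563, 617 and 609 CPM in control stroma, against 862, 1491 and 1792 CPM in GFPpos cells (log2 fold change -1.21 ± 0.26, adjusted p = 0.00529). Axl and Ajuba were high and Tpm1 low in every culture. Thbs1 (1.69 ± 0.38) and Tpm4 (1.64 ± 0.23, adjusted p = 0.0508 with all 12 libraries) were higher, and Myl9, a myosin light chain of smooth muscle, lower (-1.19 ± 0.14, adjusted p = 0.186 with all 12 libraries).

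Genes of sterol metabolism were mostly higher. Of 29 genes of cholesterol synthesis and uptake 24 were higher and 2, Ebp and Pmvk, lower in control stroma (median 1.35). Hmgcs1, the enzyme that makes HMG-CoA at the head of the pathway, stood at 173, 169 and 188 CPM in control stroma, against 24.9, 21.3 and 18.1 CPM in GFPpos cells (log2 fold change 3.04 ± 0.14, adjusted p = 1.36e-05). Cyp51, a demethylase of the later steps, measured 116, 120.4 and 126 CPM in control stroma, against 21.2, 19.1 and 16.8 CPM in GFPpos cells (log2 fold change 2.67 ± 0.11, adjusted p = 1.03e-05). Every control library was above every fresh library for both. Msmo1, of the same late steps, rose with them (log2 fold change 2.48 ± 0.21, adjusted p = 0.000109). Of the 29 genes, 13 were more than 2 times higher in GFPneg cells than in GFPpos cells, and with such genes left out 12 of 16 members were called, 10 higher and 2 lower. Promoters of Hmgcs1 and Cyp51 are shown because SREBP, the factor that senses sterols, acts there together with NF-Y. Capitals mark TCACNCCAC, the sterol regulatory element, in Hmgcs1 and CCAATC, the NF-Y box, in Cyp51, searched on both strands of the 250 bases before and 50 after each gene's start (RefSeq, GRCm38.p6), and each stretch runs 5′ to 3′ along its gene.
Hmgcs1, chr13:119690174-119690262, plus strand: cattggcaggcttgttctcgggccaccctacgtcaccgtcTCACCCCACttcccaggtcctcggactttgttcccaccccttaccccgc
Cyp51, chr5:4104681-4104766, minus strand: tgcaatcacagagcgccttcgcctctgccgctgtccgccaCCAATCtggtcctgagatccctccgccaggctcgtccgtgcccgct
Of 19 list members with a promoter sequence, 14 held CCAATC, against 18.2% of all 27025 genes with one, and 1 held TCACNCCAC, against 1.44%. A gene was counted if any of its promoters matched. Of the 14 with CCAATC, 13 were higher and 1 lower, and of the 5 without it 3 were higher and 1 lower.

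Genes of sugar use were also mostly higher, 19 being higher and 5 lower of 32 that serve glycolysis or respond to hypoxia (median 1.01). Slc2a1, the glucose transporter GLUT1, stood at 134, 132 and 132 CPM in control stroma, against 17.2, 21.2 and 18.1 CPM in GFPpos cells (log2 fold change 2.82 ± 0.10, adjusted p = 7.47e-06). Slc2a3, the transporter GLUT3, was at 21.4, 21.7 and 20.8 CPM in control stroma, against 119, 105 and 112 CPM in GFPpos cells (log2 fold change -2.39 ± 0.08, adjusted p = 7.00e-06). Hk2, the hexokinase that traps glucose, measured 51.6, 47.8 and 48.01 CPM in control stroma, against 7.07, 5.12 and 9.67 CPM in GFPpos cells (log2 fold change 2.75 ± 0.23, adjusted p = 9.90e-05). The glucose transporters were thus at opposite ends, with GLUT1 high and GLUT3 low in each culture. Pkm, the pyruvate kinase at the end of glycolysis (2.39 ± 0.14), and Bnip3, a mitophagy gene that hypoxia induces (2.54 ± 0.12), were higher, and Ndrg1, another hypoxia gene (-1.75 ± 0.10), lower. Amino acid supply and ATF4 target genes had 7 higher and 12 lower of 25 (median -0.28). Of the 25, 9 were more than 2 times higher in GFPneg than in GFPpos cells. With such genes left out, 5 were higher and 7 lower of 16 (median 0.03). The pseudokinase gene Trib3, a stress target of ATF4, stood at 11.98, 11.3 and 11.5 CPM in control stroma, against 1.0, 0.853 and 0 CPM in GFPpos cells (log2 fold change 4.21 ± 1.05, adjusted p = 0.0110). Slc1a4, a transporter of neutral amino acids, was at 99.1, 108 and 104 CPM in control stroma, against 13.6, 12.6 and 24.1 CPM in GFPpos cells (log2 fold change 2.63 ± 0.26, adjusted p = 0.000182). Nupr1, a nuclear stress protein, measured 36.7, 32.95 and 33.5 CPM in control stroma, against 216, 211 and 256 CPM in GFPpos cells (log2 fold change -2.73 ± 0.11, adjusted p = 9.72e-06). Targets of this stress factor were therefore on both sides, and without control replicate 1 the list had 12 called members in place of 19.

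Most respiratory chain and ribosomal protein genes were lower by small amounts. Of 47 nuclear-encoded respiratory subunits 46 were lower (median -0.72), and of 78 ribosomal proteins 64 (median -0.54), with none higher in either list. Cyc1, cytochrome c1 of complex III, stood at 89, 95.1 and 89.1 CPM in control stroma, against 272, 268 and 208 CPM in GFPpos cells (log2 fold change -1.46 ± 0.12, adjusted p = 9.28e-05). Ndufv1, a core subunit of complex I, was at 77.6, 77.97 and 75.6 CPM in control stroma, against 234, 201 and 167 CPM in GFPpos cells (log2 fold change -1.38 ± 0.13, adjusted p = 0.000143). The ribosomal protein gene Rpl38 measured 53.1, 53.6 and 50.5 CPM in control stroma, against 109, 111 and 145 CPM in GFPpos cells (log2 fold change -1.21 ± 0.13, adjusted p = 0.000239), and like others of its kind it has pseudogene copies that may take reads. Groups did not overlap in these 3. Beside this, 21 of the 47 respiratory and 57 of the 78 ribosomal genes were more than 2 times higher in GFPneg than in GFPpos cells, compared with 3976 of the 14305 genes tested, and the part of such RNA in these falls was not tested. With those genes left out, all 26 remaining respiratory and 18 of 21 ribosomal members were called lower (medians of -0.86 and -0.88). That fit also shifted log2 fold changes by -0.21 in the median over the genes in both fits, so these medians cannot be set directly against those above. Against a fold threshold of 2, with no such genes left out, the calls were 4 and 0.

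Cell cycle genes were lower in control stroma. Of 50 genes of replication and mitosis 48 fell and none rose (median -3.57). E2f2, an activator of S phase, stood at 0.101, 0.301 and 0.254 CPM in control stroma, against 80.5, 49.1 and 35.6 CPM in GFPpos cells (log2 fold change -7.98 ± 0.51, adjusted p = 3.40e-05). Mybl2, a driver of late cell cycle genes, was at 1.22, 0.931 and 1.04 CPM in control stroma, against 87.8, 76.5 and 43.03 CPM in GFPpos cells (log2 fold change -6.02 ± 0.33, adjusted p = 2.16e-05). Cdc6, which licenses replication origins, measured 1.85, 1.88 and 2.27 CPM in control stroma, against 140.3, 121 and 48.1 CPM in GFPpos cells (log2 fold change -5.69 ± 0.45, adjusted p = 7.85e-05). In GFPpos cells each was lowest in replicate 3, which also had the lowest erythroid sum. All 50 genes of the list were more than 2 times higher in GFPneg than in GFPpos cells. The summed plain CPM of the list were 659 to 679 in control stroma and 7932, 6295 and 3645 in the GFPpos replicates, beside 25589 to 27249 in GFPneg cells, so no member remained with such genes left out, and the part of blood cell precursors in the fall was not tested. Inhibitors of the cell cycle and p53 targets had 20 higher and 10 lower of 34 (median 0.72). Cdkn2a, whose locus encodes p16 and p19 and which rises in cultured and senescent cells, stood at 19.9, 11.9 and 17.03 CPM in control stroma, against 0.0476, 0.178 and 0 CPM in GFPpos cells (log2 fold change 7.79 ± 0.79, adjusted p = 0.000205). Tnfrsf10b, a death receptor and p53 target, was at 13.5, 12.7 and 13.05 CPM in control stroma, against 0.333, 0.604 and 1.64 CPM in GFPpos cells (log2 fold change 3.94 ± 0.59, adjusted p = 0.00112). Cdkn1c, which encodes p57, the inhibitor of quiescent stem cells, measured 2.65, 2.05 and 2.85 CPM in control stroma, against 73.3, 49.7 and 69.8 CPM in GFPpos cells (log2 fold change -4.67 ± 0.22, adjusted p = 1.46e-05). The inhibitors thus differed in direction, Cdkn2a and its neighbour Cdkn2b (6.34 ± 0.39) high and Cdkn1c low in culture. Lmnb1 (-2.32 ± 0.19) and Hmgb2 (-4.72 ± 0.22), nuclear proteins that senescent and resting cells lose, were lower, and dividing blood precursors hold them too.

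Most genes of protein folding and of lysosomes rose by small amounts. In the endoplasmic reticulum list 17 were higher and 1 lower of 28 (median 0.47). P4hb, the disulfide isomerase that is also a subunit of the collagen hydroxylase, stood at 2433, 2502 and 2491 CPM in control stroma, against 1031, 1249.7 and 1218 CPM in GFPpos cells (log2 fold change 1.09 ± 0.11, adjusted p = 0.000213). Pdia4, a disulfide isomerase, was at 711, 721 and 706 CPM in control stroma, against 249, 286 and 334 CPM in GFPpos cells (log2 fold change 1.3 ± 0.12, adjusted p = 0.000153). Herpud1, a stress-induced gene of protein degradation, was the member that fell (log2 fold change -0.99 ± 0.12, adjusted p = 0.000387). Of the lysosome and autophagy genes 32 of 37 were higher and 2 lower (median 0.73), and none of them was more than 2 times higher in GFPneg than in GFPpos cells. Lamp2, a major protein of the lysosome membrane, measured 1647, 1664 and 1658 CPM in control stroma, against 438, 389 and 484 CPM in GFPpos cells (log2 fold change 1.92 ± 0.11, adjusted p = 2.45e-05). Ctsd, the protease cathepsin D, stood at 2089, 2096 and 2039.8 CPM in control stroma, against 693, 592 and 535 CPM in GFPpos cells (log2 fold change 1.77 ± 0.12, adjusted p = 4.66e-05). Gla, which encodes alpha-galactosidase A, was at 50.7, 44.7 and 47.8 CPM in control stroma, against 13.9, 10.9 and 9.77 CPM in GFPpos cells (log2 fold change 2.05 ± 0.15, adjusted p = 6.29e-05). The gene of TFEB, the transcription factor that drives lysosome genes, went the other way (log2 fold change -1.12 ± 0.18, adjusted p = 0.00172). Its binding motif CACGTGAC, or the same letters read on the other strand, is in capitals in the promoters of Ctsd and Gla.
Ctsd, chr7:142388025-142388077, minus strand: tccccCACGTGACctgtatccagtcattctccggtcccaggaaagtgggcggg
Gla, chrX:134601154-134601241, minus strand: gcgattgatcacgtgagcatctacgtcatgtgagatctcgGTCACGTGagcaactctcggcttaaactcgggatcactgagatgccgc
The motif was found in 8 of 29 list members with a promoter sequence, against 2.55% of all genes with one. Of the 8, 7 were higher and none lower, and of the 21 without it 19 were higher and 2 lower, so members rose with and without it.

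Antioxidant genes moved in both directions, 10 higher and 18 lower of 36 (median -0.32), beside 30.4% higher and 34.7% lower over all genes. Of the 36, 11 were more than 2 times higher in GFPneg than in GFPpos cells. With such genes left out, 7 were higher and 11 lower of 25 (median -0.10). The part of blood cells in the falls was not tested. Hmox1, haem oxygenase, measured 202, 202 and 190.5 CPM in control stroma, against 50.04, 35.4 and 38.5 CPM in GFPpos cells (log2 fold change 2.26 ± 0.14, adjusted p = 3.28e-05). Sod3, the secreted superoxide dismutase, stood at 459, 473 and 468 CPM in control stroma, against 82.6, 85.5 and 138 CPM in GFPpos cells (log2 fold change 2.19 ± 0.21, adjusted p = 0.000162). Gstt1, a glutathione transferase, was at 13.3, 13.7 and 12.2 CPM in control stroma, against 90.3, 100.0 and 179 CPM in GFPpos cells (log2 fold change -3.23 ± 0.28, adjusted p = 0.000107). Groups were apart in all 3. Gpx1 (-1.91 ± 0.12) and Gsr (-2.1 ± 0.15), the peroxidase and the reductase of glutathione, were lower as well.

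Genes of antigen presentation were lower in culture. Of 25 tested genes of MHC presentation 23 were lower and none higher (median -1.76). H2-Q10, a secreted class I chain known from liver, measured 0.0507, 0.0548 and 0.0564 CPM in control stroma, against 217, 141 and 234 CPM in GFPpos cells (log2 fold change -11.79 ± 0.33, adjusted p = 4.61e-06). H2-Q4 fell too (log2 fold change -4.3 ± 0.37, adjusted p = 0.000104). Class I genes are near copies of each other, so their single values are uncertain. Cd74, the class II invariant chain, stood at 0.1901, 0.424 and 0.155 CPM in control stroma, against 88.6, 8.44 and 2.72 CPM in GFPpos cells (log2 fold change -7.01 ± 1.54, adjusted p = 0.00628). H2-Ab1, a class II chain, was at 0.0254, 0 and 0.0564 CPM in control stroma, against 31.5, 5.87 and 2.48 CPM in GFPpos cells (log2 fold change -8.85 ± 1.43, adjusted p = 0.00160). Both class II genes were highest in GFPpos replicate 1, the library with the most Ptprc, and the part of blood cells in these falls was not tested. H2-K1 and H2-D1, the main class I chains, were chosen here after their values were seen, because their promoters hold the kappaB letters GGGATTCCC, in capitals. H2-K1 measured 201, 193 and 194 CPM in control stroma, against 2849.7, 1971 and 2909 CPM in GFPpos cells (log2 fold change -3.72 ± 0.18, adjusted p = 1.54e-05). H2-D1 had a log2 fold change of -3.39 ± 0.18.
H2-K1, chr17:34000409-34000497, minus strand: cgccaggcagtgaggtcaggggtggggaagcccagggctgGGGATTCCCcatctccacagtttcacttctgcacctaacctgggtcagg
H2-D1, chr17:35262884-35262972, plus strand: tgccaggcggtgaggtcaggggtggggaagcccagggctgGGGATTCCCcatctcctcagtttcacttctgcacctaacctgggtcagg
The stretches are nearly the same, as the genes are. The motif was in 4 of 20 members with a promoter sequence, against 0.414% of all genes with one. Of the 4, 2 were lower and 2 not tested, and of the 16 without it 13 were lower.

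Interferon-stimulated genes had 25 higher, 10 lower and 15 not called of 50 (median 0.66). Ifit1, an antiviral protein that binds foreign RNA, stood at 106, 110.0 and 111 CPM in control stroma, against 32.6, 7.54 and 14.8 CPM in GFPpos cells (log2 fold change 2.57 ± 0.49, adjusted p = 0.00349). Ifit3, its partner, was at 100.1, 97.3 and 103 CPM in control stroma, against 28.1, 18.2 and 16.3 CPM in GFPpos cells (log2 fold change 2.26 ± 0.21, adjusted p = 0.000147). Oas2, which senses double-stranded RNA, measured 12.7, 15.7 and 14.9 CPM in control stroma, against 0.0238, 0 and 0 CPM in GFPpos cells (1429-fold higher, 95% counting interval 395 to 11804, adjusted p = 2.28e-05). All 3 were higher in every culture. Tgtp1, an interferon-inducible GTPase with a near copy, was higher (3.53 ± 0.33), whereas Ifitm1 (-4.62 ± 0.46), a membrane protein that blocks virus entry, Isg20 (-2.57 ± 0.19), an exonuclease, Cmpk2 (-1.95 ± 0.33), a nucleotide kinase, and Irf1 (-0.7 ± 0.14), an interferon-induced transcription factor, were lower. Promoters of Ifit1 and Ifit3 are shown with the core letters of the interferon response element, GAAANNGAA, in capitals, all of them read on the opposite strand, with neighbouring matches run together in Ifit1.
Ifit1, chr19:34640740-34640828, plus strand: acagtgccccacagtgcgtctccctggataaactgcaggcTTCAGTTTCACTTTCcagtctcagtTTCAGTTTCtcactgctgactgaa
Ifit3, chr19:34583334-34583422, plus strand: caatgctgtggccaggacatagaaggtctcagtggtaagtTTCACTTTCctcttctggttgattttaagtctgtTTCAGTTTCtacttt
The letters were in 25 of 40 members with a promoter sequence, against 9.76% of all genes with one. Of the 25, 11 were higher, 4 lower, 9 not called and 1 not tested, and of the 15 without them 5 were higher, 6 lower, 3 not called and 1 not tested. None of the motifs searched contains another.

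Most complement and acute-phase genes were lower. Of 33 tested 24 were lower and 5 higher (median -4.00). C6, a component of the membrane attack complex, stood at 0.3803, 0.301 and 0.268 CPM in control stroma, against 168, 67.2 and 86.3 CPM in GFPpos cells (log2 fold change -8.39 ± 0.48, adjusted p = 2.47e-05). Lcn2, an iron-scavenging acute-phase protein that neutrophils also make, was at 0.177, 0.301 and 0.282 CPM in control stroma, against 178, 61.4 and 53.8 CPM in GFPpos cells (log2 fold change -8.59 ± 0.68, adjusted p = 7.79e-05). F3, tissue factor, which starts blood clotting, measured 551, 595 and 581 CPM in control stroma, against 6.36, 3.06 and 1.61 CPM in GFPpos cells (log2 fold change 7.27 ± 0.54, adjusted p = 6.05e-05). F3 was high and the others low in each culture. Masp1, a protease of the lectin pathway, measured 11.2, 11.2 and 11.1 CPM in control stroma, against no counts in GFPpos cells, at least 239-fold higher. Chemokine ligands had 8 higher and 10 lower of 26 (median -0.58), but 10 higher and 9 lower without GFPpos replicate 1. These counts stood beside shares of 30.4% higher and 34.7% lower over all genes. Ccl7, which attracts monocytes, stood at 115, 116 and 121 CPM in control stroma, against 3.03, 3.23 and 5.28 CPM in GFPpos cells (log2 fold change 4.93 ± 0.24, adjusted p = 1.54e-05). Cxcl5, which attracts neutrophils, was at 122, 124 and 127 CPM in control stroma, against 3.54, 7.27 and 4.204 CPM in GFPpos cells (log2 fold change 4.64 ± 0.29, adjusted p = 3.07e-05). Ccl19, which guides lymphocytes and dendritic cells, measured 0, 0.0274 and 0 CPM in control stroma, against 67.6, 36.6 and 85.97 CPM in GFPpos cells (7157-fold lower, 95% counting interval 1981 to 59106, adjusted p = 2.07e-05). Ccl7 and Cxcl5, which act on myeloid cells, were thus high and Ccl19 low in the cultures. Ccl8 (9.66 ± 0.83) and Ccl11 (7.87 ± 1.07), neighbours of Ccl7, were higher, and Pf4 and Ppbp, which platelets store, lower beside the megakaryocyte markers given above.

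Immediate-early genes, which tissue digestion and sorting are known to induce, were lower in 28 and higher in 5 of 40 (median -1.80). Fos stood at 34.5, 34.8 and 40.02 CPM in control stroma, against 2077, 2946 and 4758 CPM in GFPpos cells (log2 fold change -6.48 ± 0.37, adjusted p = 2.34e-05). Fosb was at 0.913, 0.6298 and 1.09 CPM in control stroma, against 172, 223 and 399 CPM in GFPpos cells (log2 fold change -8.24 ± 0.45, adjusted p = 2.16e-05). Dusp1, a phosphatase of stress kinases, measured 57.3, 62.3 and 61.1 CPM in control stroma, against 776, 1134 and 1759 CPM in GFPpos cells (log2 fold change -4.34 ± 0.32, adjusted p = 5.61e-05). In all 3 genes GFPpos replicate 3 was the highest library. Fosl2, a Fos relative of stroma and bone, stood at 276, 269.6 and 268 CPM in control stroma, against 30.9, 23.6 and 20.01 CPM in GFPpos cells (log2 fold change 3.45 ± 0.17, adjusted p = 1.66e-05). Egr2, a zinc finger factor that growth factors induce, was at 78.4, 72.4 and 86.2 CPM in control stroma, against 10.7, 9.95 and 17.4 CPM in GFPpos cells (log2 fold change 2.64 ± 0.23, adjusted p = 0.000115). Egr3 (2.21 ± 0.30) was also higher. Fresh cells were digested from marrow and sorted, while the labels do not describe how the cultured cells were harvested, so handling and culture cannot be told apart here.

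Over all genes, the largest rises among genes of at least 100 CPM included several outside the lists. Prl2c2, a proliferin with near copies, measured 129, 131 and 125 CPM in control stroma, against no counts in GFPpos cells, at least 2744-fold higher. Dio3, an imprinted neighbour of Dlk1 that inactivates thyroid hormone, stood at 187, 192 and 201 CPM in control stroma, against 1.37, 0 and 0.359 CPM in GFPpos cells (log2 fold change 8.26 ± 0.86, adjusted p = 0.000239). Dlk1 and Dio3, which lie in the same imprinted domain, were both next to absent in fresh cells. Gpnmb, a membrane glycoprotein of osteoblasts, macrophages and melanocytes, was at 136, 133 and 131 CPM in control stroma, against 0.453, 0.6398 and 0 CPM in GFPpos cells (log2 fold change 8.49 ± 0.67, adjusted p = 7.53e-05). Ptprn, a phosphatase-like protein of secretory granules, measured 109.8, 107 and 116 CPM in control stroma, against 0.131, 0.0711 and 0 CPM in GFPpos cells (log2 fold change 10.5 ± 0.42, adjusted p = 1.00e-05). Ssc5d, a scavenger receptor-like protein, had a log2 fold change of 7.76 ± 0.48. Every one of these was over 100 CPM in each control library. A mean of at least 100 CPM in the higher group was a condition for their choice, so this was no separate result. Among the largest falls outside the lists, Car3, a carbonic anhydrase of fat and muscle cells, stood at 0, 0.0274 and 0 CPM in control stroma, against 559.8, 852 and 856 CPM in GFPpos cells (81294-fold lower, 95% counting interval 22504 to 671279, adjusted p = 5.80e-06). Nup210 (233, 188 and 101 CPM in GFPpos cells) and Cldn13 (203, 146 and 96.8 CPM) had 2 counts each in control stroma, and both were highest in GFPpos replicate 1 and lowest in replicate 3, as the erythroid markers were. The neutrophil genes S100a8, S100a9, Ltf and Ngp were among the largest falls too, with S100a9 at 0, 0.1095 and 0 CPM in control stroma, against 727, 311 and 169.8 CPM in GFPpos cells (log2 fold change -13.38 ± 1.05, adjusted p = 7.49e-05). The part of blood cells in these falls was not tested.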

How the data were processed

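The deposited files hold whole-number read counts per gene symbol, 1 file per library, which the authors made from single-end NextSeq 500 reads. STAR 2.4.1c, featureCounts 1.4.6 and the mouse build mm10 are named in the submitters' processing notes, and an ENSEMBL GRCm38 annotation per the labels' protocols. The strand setting of the counting is not given in the sources used here. Of 24062 symbols, 27 that a spreadsheet had turned into dates were left out (0.183 to 0.369% of counts in a library), and 6227 genes had no counts in the 6 libraries.

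The 3 control and 3 GFPpos libraries were fitted alone with edgeR 4.0.16 (R 4.3.3): filterByExpr, TMM factors, and the quasi-likelihood F-test with Benjamini-Hochberg adjustment over 14305 genes. Standard errors are the log2 fold change divided by the square root of F. DESeq2 1.42.0, limma 3.58.1 (voom), other scalings and filters, all 12 libraries, a fold threshold of 2, a replicate term and leaving out each library were alternatives. Same-numbered libraries did not deviate together (correlations of 0.0013, -0.0237 and -0.000805), so the numbers were not taken to pair them. CPM are TMM-scaled over the 6 libraries, except plain CPM in sums over other cell types. Single libraries of at least 60507051 counts leave counting error small except for the lowest genes.

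Members and lists were chosen with earlier results of these data known. Named genes are Kitl, Cxcl12, Lepr, the sort antigens, cell type markers and the 5 transduced genes, up to 4 called members of each list at either end whose higher group has at least 10 CPM, the 12 highest and 12 lowest over all genes with at least 100 CPM and groups that do not overlap, members that did not pass, and all members of the FGF and IGF lists; some are not reported here. Promoter sequences came from RefSeq (GRCm38.p6), with a window of 250 bases before and 50 after the start.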

Additional observations from a re-analysis of the deposited data

How the results depend on the processing

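No called named gene changed direction under any alternative, though 5 uncalled ones changed sign: of 328 named genes, 276 kept call and direction throughout, 6 gained a call at least once and 46 lost it at least once, 40 of them at a fold threshold of 2, 12 with all 12 libraries and 10 without 1 library. Calls over all genes numbered 9328 with RLE factors, 9285 with upper-quartile factors, 10210 with DESeq2, 9309 with voom and group weights, 9399 without a filter, 8805 with at least 50 counts in 3 libraries and 10362 with all 12 libraries, and 7924 to 10329 with 1 library left out (3644 to 4898 higher, 4266 to 5431 lower). With the replicate number as a block 8570 genes were called, though the numbers share no more than a label and did not pair the libraries.

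Against a fold of 2, 4114 genes passed, 1598 higher and 2516 lower, a share of 38.8% higher against 46.7% without it. Members called then were 9 of the FGF receptor and feedback list, 5 SRF and YAP targets, 12 integrin and focal adhesion, 14 cholesterol, 14 glycolysis, 8 amino acid, 4 respiratory, 0 ribosomal, 1 endoplasmic reticulum, 8 lysosome, 7 antioxidant, 13 antigen presentation and 22 interferon genes. With genes over 2 times higher in GFPneg than in GFPpos cells left out, 6581 of 10336 genes were called and log2 fold changes shifted by -0.21 in the median. The lists then had 12 of 16 cholesterol, 12 of 16 amino acid, 26 of 26 respiratory, 18 of 21 ribosomal, 0 of 0 replication and mitosis, 18 of 25 antioxidant and 0 of 0 erythroid members called, and the endoplasmic reticulum list 11 higher and 4 lower. The median of the guidance list was then -0.13 against 0.08, and that of the amino acid list 0.03 against -0.28. The lymphoid list had 2 called members, 5 with DESeq2, 5 without a filter, 1 with at least 50 counts in 3 libraries, 6 with all 12 libraries and 2 to 4 with 1 library left out. The amino acid list had 12 to 20 called members with 1 library left out. Where a list had near equal numbers in both directions, the larger side could turn. Guidance genes, 11 higher and 14 lower, were 19 and 15 with voom and 14 and 13 with the block. With genes higher in GFPneg cells left out, stromal transcription factors were 24 higher and 26 lower (28 and 22 before), Hox genes 8 and 9 (9 and 7) and receptors 15 and 16 (17 and 16), and at a fold of 2 the FGF receptor list was 4 and 5, receptors 11 and 12, the IGF list 4 and 5 and the Wnt list 10 and 11. Medians ranged over the alternatives from 0.09 to 0.81 in the Wnt list, 0.09 to 0.53 in TGF-beta and BMP, 0.10 to 0.46 in receptors, -0.29 to 0.22 in IGF, -0.15 to 0.19 in stromal transcription factors, -0.37 to 0.97 in Hox, 0.19 to 0.47 in surface markers, 0.02 to 0.34 in fibrillar and 0.12 to 0.97 in other collagens, -0.31 to -0.06 in integrins, 0.35 to 0.70 in cadherins, -2.53 to -0.91 in Notch and -0.13 to 0.16 in guidance. The causes were not tested.

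The spread was 6.96% among control libraries and 41.9% among GFPpos libraries, and the fit uses a shared spread. Among the fits without 1 library, those without a control library, which drop the more even group to 2 libraries, gave the fewest calls. Genes at traces of CPM rest on few reads, and the sequencing depth does not remove the blood transcripts of the fresh libraries.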
